A study of Rattus norvegicus with 144 samples.

Results

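The dorsal striatum (STR) was compared with the dorsal hippocampus (HIP) in saline-treated F344 rats (F344_Sal), with 12 libraries of each region. These are 24 of the 144 libraries of a study of nicotine in HIV-1 transgenic rats, and they were taken by their region, strain, and drug labels. F344 is the inbred background strain of the HIV-1Tg rat, a line made with a non-infectious HIV-1 transgene, from which gag and pol are missing and which its own LTR promoter drives. F344_Sal rats received 1 ml/kg of saline in 2 injections per day for 17 days. The same comparison was then examined in saline-treated HIV-1Tg rats (HIV_Sal) and in F344 rats given 0.25 mg/ml nicotine at the same volume and schedule (F344_Nic), again with 12 libraries of each region. All groups were adult male rats that had earlier been used in a behavioural study, and tissue was punched from brain slices, so that every library holds RNA of all cell types of the punch. Each group had 12 rats and every brain gave all regions, so the STR and HIP libraries of a group share animals. The labels number the libraries of each region from 1 to 12 and do not say which STR and HIP libraries came from the same rat, and the tests treat them as independent. The transgene's own transcripts were not analysed here.

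Most neurons of the striatum are inhibitory spiny projection neurons, which receive dopamine and glutamate input and whose dopamine and adenosine receptors act through adenylyl cyclase. Their stimulatory G protein carries the olfactory type of alpha subunit, encoded by Gnal, in place of the common Gs alpha subunit. The hippocampus is built from layers of excitatory pyramidal and granule cells, with fewer inhibitory interneurons, and is known for its role in memory.

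Expression was given as FPKM, the number of fragments of a transcript scaled by its length and by the mapped fragments of the library. A total of 38935 transcripts of 29132 genes that matched the annotation exactly were listed in both regions. The tables do not pair Ensembl identifiers with gene names. Names could be attached to 23 genes only, and the marker genes of striatal and hippocampal cell types could not be looked up, except for Gnal. The number of reads per library is not in the tables, so the depth is unknown and counting error could not be given. A relative measure of depth, base coverage divided by FPKM, was 2.03 ± 0.17 (SD, n = 12) in the STR and 2.01 ± 0.27 (SD, n = 12) in the HIP of F344_Sal rats, a difference within the spread between libraries (two-sided permutation test with 100000 resamples, p = 0.896).

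Before the regions were compared, each library was checked against its region label with transcripts picked in the F344_Nic rats, which enter none of the saline comparisons. Among 456 transcripts with a mean of at least 5 FPKM that did not overlap between the regions in F344_Nic rats, the 50 with the largest fold toward the STR and the 50 with the largest fold toward the HIP were taken. The score of a library was the median log2(FPKM + 0.1) of the first list minus that of the second. In F344_Sal rats the score ranged from 3.81 to 5.75 in 11 STR libraries and from -3.20 to -2.11 in 11 HIP libraries. The library labelled STR of replicate 10 scored -2.87, inside the range of the other HIP libraries, and the library labelled HIP of replicate 10 scored 3.98, inside the range of the other STR libraries. The same was seen in HIV_Sal replicate 6, whose library labelled STR scored -3.18 and whose library labelled HIP scored 4.03, beside 3.47 to 5.585 and -3.37 to -1.79 in the other 11 rats. Thus 4 of 48 saline libraries stood on the other side of 0 from their label. The F344_Nic libraries could not be checked in this way, since the lists were picked in them.

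**Figure D1:**
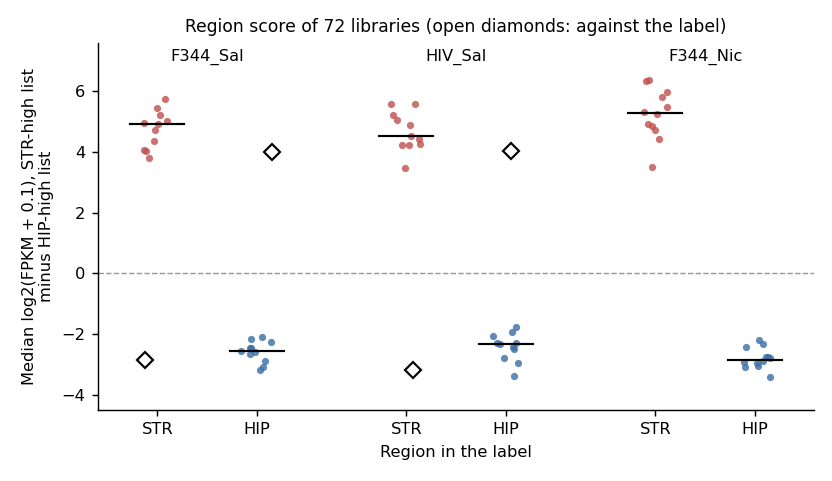
Region score of each of 72 libraries (median log2(FPKM + 0.1) of 50 transcripts high in the STR of F344_Nic rats minus that of 50 high in the HIP; y axis) by the region in the label (x axis) for F344_Sal, HIV_Sal, and F344_Nic rats. Points are libraries, lines are medians, and open diamonds are the 4 libraries that went against their label, at -2.87, 3.98, -3.18, and 4.03. The F344_Nic points show the libraries in which the lists were picked.

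The pattern extended over most transcripts that separated the regions. In the other 22 F344_Sal libraries, the STR and HIP values of 554 tested transcripts with a value in both libraries of replicate 10 did not overlap. For 486 of these (87.7%), the library labelled STR of replicate 10 lay on the HIP side and the library labelled HIP on the STR side, while 2 transcripts followed the labels. In HIV_Sal rats, 512 of 573 transcripts chosen in the same way (with a value in both libraries of replicate 6) were crossed in replicate 6 (89.4%) and 6 followed the labels. The labels were kept as deposited, no library was moved to the other region, and the comparisons below are given with all 24 libraries and without both libraries of replicate 10 (for HIV_Sal rats, of replicate 6). Ranges of FPKM are over the other 11 rats. Leaving these libraries out was decided after the values were seen.

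With all 24 libraries, 14682 transcripts had an FPKM above 0.01 in at least 6 rats of each region. Of these, 1124 were higher in the STR (7.66%) and 698 were higher in the HIP (4.75%), at an adjusted p under 0.05 (limma on log2(FPKM + 0.1), Benjamini-Hochberg) and a fold change over 1.2. Without replicate 10, 1570 of 14042 transcripts were higher in the STR (11.2%) and 920 were higher in the HIP (6.55%). In that comparison, 654 transcripts higher in the STR and 444 higher in the HIP differed by more than 2-fold, 177 and 167 by more than 4-fold, and 63 and 55 by more than 8-fold. The STR therefore had more transcripts past the threshold, while the largest folds were about as frequent in both directions. The excess of the STR depended on the scaling of the libraries. With median scaling the counts were 921 and 790 with all libraries, and 1329 and 1086 without replicate 10, a smaller excess. Of the 1776 transcripts called with all libraries that were also tested without replicate 10, 1753 remained called, all of them in the same direction. The median log2 difference of all transcripts tested was 0.09 without replicate 10 and 0.08 with all libraries, a small shift toward the STR. The STR and HIP values come from separate tables, so that region and table cannot be told apart, and in punches of mixed tissue, fewer cells of a type and less RNA per cell cannot be told apart either.

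The share of transcripts called rose with expression. Without replicate 10, 8.16% of transcripts with a mean under 1 FPKM were higher in the STR and 3.99% in the HIP. These shares were 10.2% and 4.495% from 1 to 5 FPKM, 11.9% and 7.67% from 5 to 20 FPKM, and 19.7% and 14.8% at 100 FPKM or more. With all libraries they went from 5.12% and 2.82% under 1 FPKM to 16.15% and 11.3% at 100 FPKM or more. The excess of STR calls was thus widest in proportion among transcripts under 5 FPKM. The median SE of the log2 difference was 0.299 under 1 FPKM, 0.466 from 1 to 5 FPKM, and 0.166 at 100 FPKM or more, so that the abundant transcripts were also the most precisely measured. Its part in the rise was not tested. Transcripts higher in the STR had a median mean of 5.99 FPKM and a median length of 1962 bases, and those higher in the HIP had 9.195 FPKM and 2345 bases, beside 4.10 FPKM and 2008 bases among all transcripts tested.

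**Figure D2:**
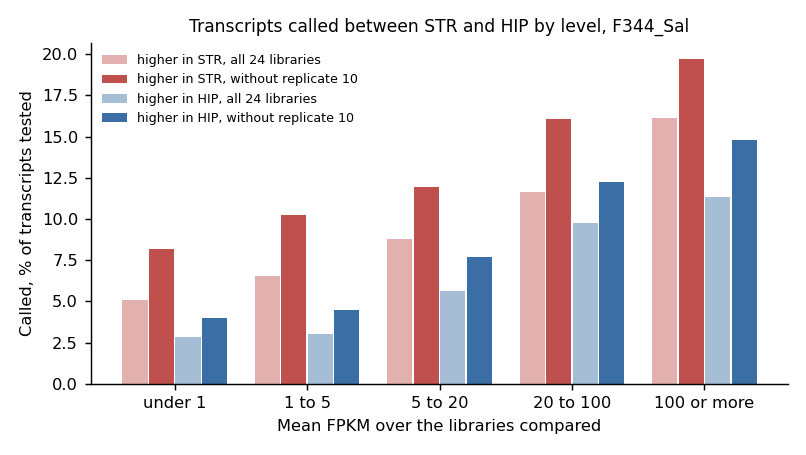
Share of transcripts tested that were called higher in the STR (red) or in the HIP (blue), in percent (y axis), by mean FPKM over the libraries compared (x axis), in F344_Sal rats with all 24 libraries (pale) and without both libraries of replicate 10 (dark). In every class, more transcripts were called higher in the STR than in the HIP, and the dark bars rise from 8.16% to 19.7% for the STR and from 3.99% to 14.8% for the HIP.

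A stricter reading counts transcripts whose values did not overlap between the regions in any rat. Without replicate 10, 297 of the called transcripts were of this kind with higher expression in the STR and 247 with higher expression in the HIP. With all 24 libraries these counts were 2 and 1. Of all transcripts tested, called or not, 3.95% did not overlap without replicate 10, and 0.0204% with all libraries. Of the transcripts with a mean of at least 5 FPKM, 197 and 178 separated the regions completely without replicate 10, and 0 and 1 with all libraries.

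The transcripts with the largest folds among these separated the regions almost as present against absent. ENSRNOT00000036034 (1404 bases), the transcript with the highest fold toward the STR, ranged from 11.1 to 36.7 FPKM in 11 STR libraries (median 26.64) and from 0 to 0.683 FPKM in 11 HIP libraries (median 0.121). In replicate 10 it was 0.0517 FPKM under the STR label and 27.7 FPKM under the HIP label. The log2 difference was 6.799 (SE 0.33, adjusted p = 9.05e-13) without replicate 10 and 5.61 (adjusted p = 0.000178) with all libraries. The PFC (prefrontal cortex) of the same group had a median of 0.156 FPKM, so that the transcript was near 0 in both cortical regions.

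The next was ENSRNOT00000067924 (1575 bases), which ranged from 24.2 to 111 FPKM in the STR (median 41.4) and from 0 to 2.30 FPKM in the HIP (median 0.722). Its values in replicate 10 were 1.09 FPKM under the STR label and 8.81 FPKM under the HIP label, the latter between the ranges of the regions. A log2 difference of 6.78 (SE 0.63, adjusted p = 3.47e-08) was found without replicate 10, and of 5.97 (adjusted p = 9.03e-05) with all libraries. Both transcripts were thus above 11 FPKM in every F344_Sal library labelled STR other than that of replicate 10. In F344_Nic rats, ENSRNOT00000067924 was listed at 0 FPKM in STR replicate 11, so that its regions overlapped there. Its log2 difference in F344_Nic rats was 5.89 (adjusted p = 3.69e-05).

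In the opposite direction, ENSRNOT00000008126 (1666 bases) ranged from 31.4 to 122 FPKM in the HIP (median 84.4) and from 0 to 1.12 FPKM in the STR (median 0.372), with 111 FPKM under the STR label and 1.165 FPKM under the HIP label in replicate 10. On the log2 scale the difference was -7.50 (SE 0.34, adjusted p = 2.94e-13) without replicate 10 and -6.34 (adjusted p = 9.06e-05) with all libraries. Its median in the PFC was 54.9 FPKM, so that, unlike in the STR, it was abundant in both cortical regions. Another transcript, of 1958 bases, had almost the same difference of -7.50 (adjusted p = 5.5e-14) and is not named by identifier here. The 3 named transcripts come from the ranking without replicate 10 and were chosen after their values were seen.

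ENSRNOT00000018145 (1702 bases) was the only transcript with a mean of at least 5 FPKM that separated the regions in all 24 libraries as labelled. It ranged from 3.28 to 7.97 FPKM in the other STR libraries (median 6.71) and from 8.47 to 13.8 FPKM in the other HIP libraries (median 11.2). In replicate 10 it was 3.67 FPKM under the STR label and 8.41 FPKM under the HIP label, in the order of the labels, although the second value lay just under the other HIP libraries. The log2 difference was -0.95 (adjusted p = 0.000368) with all libraries and -0.93 (SE 0.16, adjusted p = 0.000167) without replicate 10, far smaller than those of the other 3 transcripts. In HIV_Sal rats the library labelled STR of replicate 6 was at 9.55 FPKM and the library labelled HIP at 7.77 FPKM, against the labels.

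**Figure D3:**
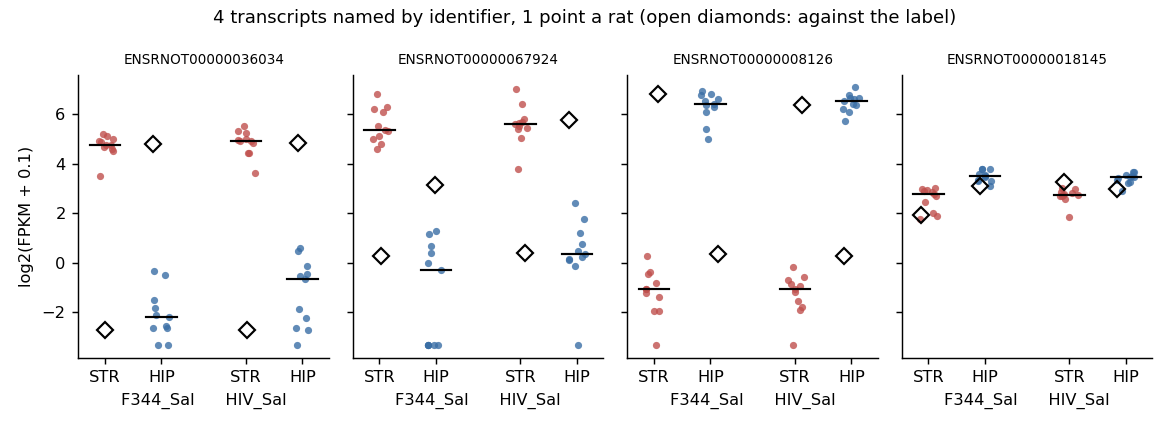
log2(FPKM + 0.1) of 4 transcripts (panels, by Ensembl identifier) in the STR (red) and HIP (blue) of F344_Sal and HIV_Sal rats. Points are libraries, lines are medians without the doubted libraries, and open diamonds are the 4 libraries against their label. In the first 3 panels the regions are separated by a wide gap and the diamonds mostly sit with the other region; in the last panel, the 2 F344_Sal diamonds follow the order of the labels.

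Names were available for 23 genes, which the study listed for a difference between strains, an effect of nicotine, and their pathways, and not for a difference between regions. For Wnt7a, Calm3, Cabp1, and Letm1 the name was found on a row that was not an exact match (class code j, another splice form, for Wnt7a and Calm3, and class code i, a fragment inside an intron, for Cabp1 and Letm1), and the values below are those of the exactly matched row. The 23 genes had 37 exactly matched transcripts, of which 25, from 21 genes, were tested. Without replicate 10, 5 of the 25 were higher in the STR and 1 was higher in the HIP, beside 11.2% and 6.55% of all transcripts tested. With all libraries, 3 were higher in the STR and 0 in the HIP, beside 7.66% and 4.75%. Their median log2 difference was -0.15 without replicate 10 and 0.04 with all libraries, beside 0.09 and 0.08 over all transcripts tested.

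Of the genes of G protein signalling, Gnal (ENSRNOT00000025172), the olfactory type stimulatory alpha subunit, was higher in the STR. It ranged from 19.8 to 103 FPKM in 11 STR libraries (median 49.8) and from 5.452 to 17.9 FPKM in 11 HIP libraries (median 13.8), with no overlap. The libraries of replicate 10 were at 18.7 FPKM under the STR label and 34.85 FPKM under the HIP label. The first value lies just above the HIP range and the second inside the STR range. The log2 difference was 2.02 (SE 0.27, adjusted p = 8.06e-06) without replicate 10 and 1.77 (SE 0.30, adjusted p = 0.000368) with all libraries. In HIV_Sal rats without replicate 6, Gnal was again separated without overlap, from 19.95 to 153 FPKM in the STR and from 0 to 15.7 FPKM in the HIP, with a log2 difference of 3.23 (adjusted p = 0.000677), and of 2.67 (adjusted p = 0.0118) with all libraries. With depth as a covariate the latter was 2.76 and not past the threshold (adjusted p = 0.142), the 1 of 14 settings in which the Gnal call was lost in HIV_Sal rats. In F344_Nic rats the log2 difference was 2.92 (adjusted p = 4.40e-09).

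The second annotated Gnal transcript, ENSRNOT00000013958, on whose row the study's Gnal entry was found, had another pattern. It was at 7.19 to 18.3 FPKM in all 11 HIP libraries (median 11.7), whereas in the STR it was listed at 0 in 7 of 11 rats and reached 51.8 FPKM in the others. It was too often at 0 to be tested by itself in F344_Sal rats. In HIV_Sal rats its log2 difference was -0.26 (adjusted p = 0.929) without replicate 6 and 0.21 (adjusted p = 0.949) with all libraries. In F344_Nic rats it was -1.29 (adjusted p = 0.559). Summed over both transcripts, Gnal remained higher in the STR, with a log2 difference of 1.46 (adjusted p = 6.63e-08) without replicate 10 and 1.172 (adjusted p = 0.0013) with all libraries. Gnao1, the alpha subunit of the inhibitory G protein Go, gave log2 differences of -2.38 (SE 1.74, adjusted p = 0.418) and -0.31 (SE 1.59, adjusted p = 0.932) for its 2 tested transcripts without replicate 10, and -2.95 (adjusted p = 0.291) and 0.35 (adjusted p = 0.932) with all libraries. Each of these was listed at 0 in some rats and reached 69.5 FPKM or 81.6 FPKM in others. Summed over its transcripts, the log2 difference had the other sign, 0.81 without replicate 10 (adjusted p = 0.587) and 0.61 with all libraries (adjusted p = 0.696).

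The receptors and ligands of the named set included Ephb1 (ENSRNOT00000010634), a receptor tyrosine kinase for ephrin-B ligands that guides axons and shapes synapses. It ranged from 12.85 to 18.3 FPKM in the STR (median 16.6) and from 6.50 to 9.30 FPKM in the HIP (median 7.28), with no overlap. In replicate 10 it was 7.308 FPKM under the STR label and 12.6 FPKM under the HIP label. Ephb1 was the most precisely measured of the named differences past the threshold, with a log2 difference of 1.08 (SE 0.08, adjusted p = 1.26e-09) without replicate 10 and 0.93 (SE 0.13, adjusted p = 9.85e-05) with all libraries. HIV_Sal rats showed 2 levels in the STR, with 5 rats at 2.50 to 5.13 FPKM and 6 rats at 11.79 to 16.3 FPKM, and a log2 difference of 0.09 (adjusted p = 0.893) without replicate 6 and 0.02 (adjusted p = 0.984) with all libraries. F344_Nic rats had 2 levels in the STR as well, with 2 rats at 2.14 to 3.73 FPKM and 10 rats at 11.2 to 18.8 FPKM, and their log2 difference of 0.42 was not past the threshold (adjusted p = 0.306). The change of the region difference between the strains was -0.99 (SE 0.33, adjusted p = 0.81) without the doubted libraries and -0.91 (adjusted p = 0.836) with all libraries.

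Ntrk2, the receptor for brain-derived neurotrophic factor, was lower in the STR only when its transcripts were summed (log2 difference -0.68, adjusted p = 0.0441, without replicate 10; -0.54, adjusted p = 0.14, with all libraries). The Ntrk2 sum was not past the threshold in HIV_Sal rats without replicate 6 (-0.35, adjusted p = 0.33) or in F344_Nic rats (-1.28, adjusted p = 0.233). The ligands Wnt5a and Fgf9 were not past the threshold, at -0.55 (SE 0.27, adjusted p = 0.178) and 0.20 (SE 0.34, adjusted p = 0.768) without replicate 10, and at -0.47 (adjusted p = 0.269) and -0.05 (adjusted p = 0.961) with all libraries. The exactly matched row of Wnt7a was listed at 0 in 8 of 11 STR libraries and 10 of 11 HIP libraries and was not tested.

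Among intracellular scaffolds, Mapk8ip2 (ENSRNOT00000055792), which assembles JNK pathway kinases, had 2 levels in the STR. It was at 8.15 to 14.8 FPKM in 4 rats and at 49.5 to 76.6 FPKM in 7 rats, whereas all 11 HIP libraries lay from 13.42 to 17.9 FPKM. The regions thus overlapped, and the log2 difference of 1.09 (SE 0.35, adjusted p = 0.03) without replicate 10 and 1.038 (adjusted p = 0.0404) with all libraries was past the threshold. This call was kept in 10 of 14 other settings, and in 6 of the 24 fits that left out 1 library. In HIV_Sal rats the high level was seen in both regions, in 5 STR and 3 HIP libraries, and the log2 difference was -0.10 (adjusted p = 0.929) without replicate 6 and -0.04 (adjusted p = 0.973) with all libraries. F344_Nic rats had the high level in 4 STR and 3 HIP libraries, with a log2 difference of -0.32 (adjusted p = 0.708). Axin1, a scaffold of the complex that degrades beta-catenin, was higher in the STR for 1 of its 2 transcripts without replicate 10 (ENSRNOT00000048663, 1.79, SE 0.58, adjusted p = 0.0342), and the value with all libraries was 1.27 (adjusted p = 0.254). This Axin1 call was made in 2 of 14 settings and in 0 of 24 fits that left out 1 library, and the values were 0.52 (adjusted p = 0.743) in HIV_Sal rats without replicate 6 and 0.55 (adjusted p = 0.712) in F344_Nic rats. The other Axin1 transcript, on whose row the name was found, gave 0.35 (adjusted p = 0.731) in F344_Sal rats without replicate 10. The Axin1 sum gave 0.76 (adjusted p = 0.393) there and -0.48 (adjusted p = 0.782) in HIV_Sal rats without replicate 6. In F344_Nic rats the sum was past the threshold (0.54, adjusted p = 0.0453).

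Polr2c (ENSRNOT00000021639), a subunit of RNA polymerase II, had its 2 levels in the HIP. It was at 2.34 to 5.42 FPKM in 5 rats and at 20.7 to 25.9 FPKM in 6 rats, whereas the STR ranged from 19.6 to 29.4 FPKM. Its log2 difference was 1.36 (SE 0.43, adjusted p = 0.0302) without replicate 10 and 1.22 (adjusted p = 0.0539) with all libraries. The call was made in 4 of 14 other settings and in 7 of 24 fits that left out 1 library, and also in the sum over the transcripts of the gene with all libraries (adjusted p = 0.0492). HIV_Sal rats had the low level in 7 of 11 HIP libraries and in 1 of 11 STR libraries, with a log2 difference of 1.52 (adjusted p = 0.0366) without replicate 6 and 1.12 (adjusted p = 0.192) with all libraries. The HIV_Sal call was made in 2 of 14 other settings and in 0 of 24 fits that left out 1 library (lowest adjusted p of all 0.0127). For F344_Nic rats the value was 0.52 (adjusted p = 0.569), with the low level in 4 HIP and 2 STR libraries.

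Gstm7 (ENSRNOT00000025689), a mu class glutathione S-transferase that conjugates glutathione to reactive compounds, was the 1 named transcript higher in the HIP. It ranged from 51.7 to 134 FPKM in the HIP (median 109) and from 29.5 to 83.5 FPKM in the STR (median 65.0), and the ranges overlapped. The log2 difference was -0.74 (SE 0.20, adjusted p = 0.00909) without replicate 10 and -0.60 (SE 0.21, adjusted p = 0.06) with all libraries. In F344_Nic rats it was -0.57 (adjusted p = 0.00949). The value in HIV_Sal rats was -0.46 with all libraries and not past the threshold (adjusted p = 0.123), and -0.57 without replicate 6 (adjusted p = 0.0375), the 1 setting of 14 that gave a call. Gstm7 belongs to a family of similar genes, and reads shared with its relatives could not be told apart. Gsr, which regenerates reduced glutathione, differed by -0.23 (SE 0.11, adjusted p = 0.167) without replicate 10 and -0.20 (adjusted p = 0.255) with all libraries.

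**Figure D4:**
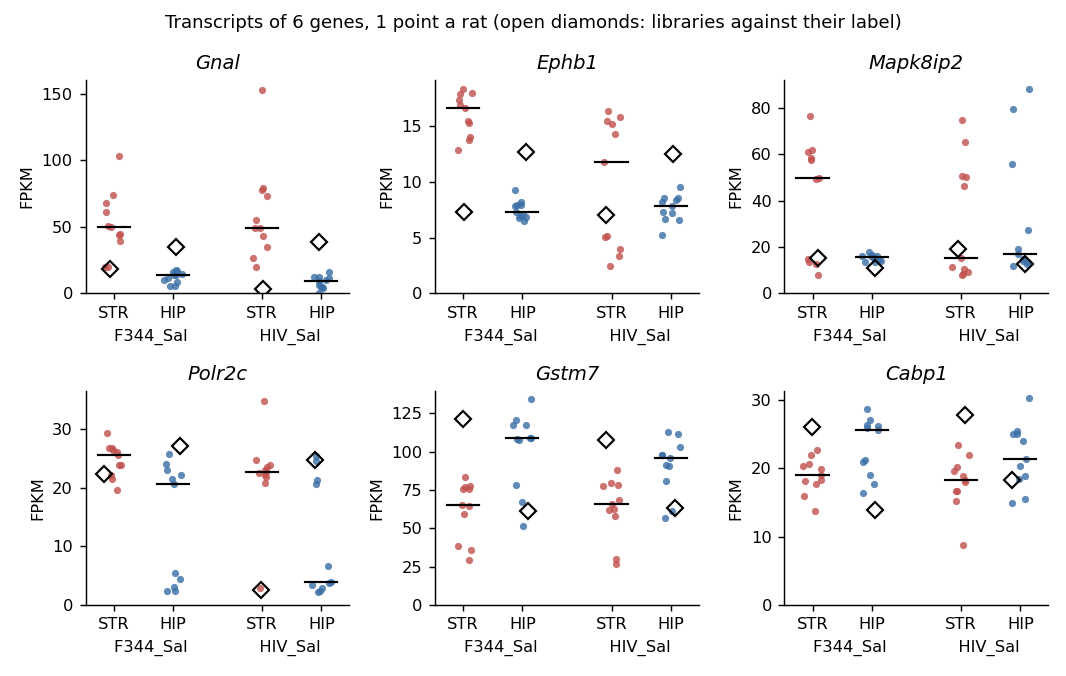
FPKM of 1 transcript each of Gnal, Ephb1, Mapk8ip2, Polr2c, Gstm7, and Cabp1 (y axes) in the STR (red) and HIP (blue) of F344_Sal and HIV_Sal rats. Points are rats, lines are medians without the doubted libraries, and open diamonds are the 4 libraries against their label. Gnal is separated by region in both strains and Ephb1 in F344_Sal rats, while Mapk8ip2 and Polr2c fall into 2 levels within a region.

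Among genes of calcium signalling, Cabp1, a neuronal calcium-binding relative of calmodulin, was lower in the STR when its transcripts were summed, with a log2 difference of -0.58 (SE 0.14, adjusted p = 0.0038) without replicate 10 and -0.52 (adjusted p = 0.0102) with all libraries. The Cabp1 sum was not past the threshold in HIV_Sal rats, at -0.46 (adjusted p = 0.0632) without replicate 6 and -0.37 (adjusted p = 0.172) with all libraries, or in F344_Nic rats, at -0.24 (adjusted p = 0.338). Its tested transcripts gave -0.28 (SE 0.11, adjusted p = 0.0789) for ENSRNOT00000001551 and -1.48 (SE 1.23, adjusted p = 0.488) for ENSRNOT00000039281 without replicate 10, and -0.18 (adjusted p = 0.395) and -1.46 (adjusted p = 0.484) with all libraries. Plch1, a phospholipase C, was higher in the STR in the same kind of sum (0.81, SE 0.24, adjusted p = 0.0183, without replicate 10; 0.43, adjusted p = 0.568, with all libraries). This Plch1 sum was not past the threshold in HIV_Sal rats without replicate 6 (0.09, adjusted p = 0.888) or in F344_Nic rats (0.24, adjusted p = 0.79). The exactly matched row of Calm3, a calmodulin gene, was listed at 0 in 7 of 11 libraries of each region and was not tested, which does not describe its other forms. Chp, which binds calcineurin and sodium-proton exchangers, differed by -0.39 (SE 0.32, adjusted p = 0.472) without replicate 10 and 0.11 (adjusted p = 0.942) with all libraries.

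The named genes of mitochondrial and energy metabolism were not past the threshold. Idh3B, a subunit of the isocitrate dehydrogenase of the citric acid cycle, differed by 0.48 (SE 0.23, adjusted p = 0.171) without replicate 10 and 0.37 (adjusted p = 0.339) with all libraries. Mdh1, the cytosolic malate dehydrogenase, was at 30.3 to 43.3 FPKM in 8 STR libraries and at 295 to 352 FPKM in 3, and at 28.2 to 52.4 FPKM in 9 HIP libraries and 219 to 292 FPKM in 2. Such 2 levels within a region were also seen for Ndufs4, a subunit of respiratory complex I, at 9.13 to 14.9 FPKM in 5 STR libraries and 94.0 to 106.6 FPKM in 6. Their log2 differences were 0.32 (SE 0.53) and -0.63 (SE 0.57) without replicate 10, and 0.04 and -0.83 with all libraries. Letm1, an ion transporter of the inner mitochondrial membrane, differed by -0.15 (SE 0.15, adjusted p = 0.565) without replicate 10 and -0.17 (adjusted p = 0.513) with all libraries.

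Rap1b, a small GTPase of cell adhesion, differed by -0.21 (SE 0.19, adjusted p = 0.525) in F344_Sal rats without replicate 10 and -0.11 (adjusted p = 0.794) with all libraries. In HIV_Sal rats it was lower in the STR, with -1.036 (SE 0.30, adjusted p = 0.0201) without replicate 6 and -0.96 (adjusted p = 0.0388) with all libraries. Only 9 STR libraries of HIV_Sal rats had a value, and the call was kept in 10 of 14 other settings and in 13 of 24 fits that left out 1 library (highest adjusted p 0.401). The change of the Rap1b difference between the strains did not pass the threshold (-0.83, SE 0.35, adjusted p = 0.894, without the doubted libraries; -0.85, adjusted p = 0.958, with all libraries). Cflar, an inhibitor of death receptor signalling, and Plaa, a phospholipase A2 activating protein, differed by 0.11 (SE 0.22) and -0.51 (SE 0.31) in F344_Sal rats without replicate 10 and by 0.06 and -0.54 with all libraries, and neither passed the threshold.

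Cufflinks divides the reads of a gene among its transcripts, so the regions could differ in isoform as well as in gene expression. Of 676 genes with more than 1 transcript tested without replicate 10, 24 had more than 1 called and 2 had transcripts called in opposite directions. In the first gene, a transcript of 1067 bases was higher in the STR, from 43.0 to 66.2 FPKM in the STR and from 15.8 to 47.3 FPKM in the HIP (log2 difference 0.84, SE 0.14, adjusted p = 0.000155). Another of 1157 bases was higher in the HIP, from 65.4 to 104 FPKM in the HIP and from 40.9 to 68.0 FPKM in the STR (-0.65, SE 0.09, adjusted p = 2.11e-05). The second gene had a transcript of 5977 bases with a log2 difference of 3.19 (SE 1.08, adjusted p = 0.0429) and one of 5764 bases with -3.33 (adjusted p = 0.0332), where some libraries of the lower region were at 0. With all libraries the first pair gave 0.74 (adjusted p = 0.00166) and -0.54 (adjusted p = 0.00301), and the second 3.15 (adjusted p = 0.0366) and -3.03, which was not past the threshold (adjusted p = 0.0512).

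The expression of both genes summed over their transcripts was not past the threshold. Both pairs kept their opposite signs in HIV_Sal rats without replicate 6, where 1 pair was called in both transcripts, and both pairs were called the same way in F344_Nic rats. With all F344_Sal libraries, 1 gene had oppositely called transcripts, and without the filter on low values 13 had.

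A few transcripts were above 0.01 FPKM in every rat of 1 region and, in every rat of the other, at or under it or without a value. Without replicate 10 there were 9 such transcripts in the STR and 7 in the HIP, with medians from 0.223 to 87.8 FPKM and from 0.198 to 68.0 FPKM. They were among 8173 and 7986 transcripts above 0.01 FPKM in every library of the STR or the HIP. With all libraries there were 1 and 0. The transcript with the median of 87.8 FPKM was at 76.2 FPKM under the STR label of replicate 10 and had no value under the HIP label. HIV_Sal rats without replicate 6 had 7 and 5, and F344_Nic rats 9 and 5. One gene held a transcript of each kind. Its striatal transcript was at 5.51 to 9.27 FPKM (median 7.934) in the STR, and its hippocampal transcript was at 29.9 to 86.7 FPKM (median 68.0) in the HIP, each with no value above 0.01 FPKM in the other region without replicate 10. In replicate 10 the hippocampal transcript was at 0 under both labels and the striatal one was found under both, so that this gene does not order the 2 libraries.

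The PFC, a neocortical region, served as another reference. Without replicate 10, the median FPKM in the PFC of F344_Sal rats was nearer to the HIP than to the STR for 1089 of 1565 transcripts higher in the STR (69.6%), beside 56.2% of all transcripts tested. For transcripts higher in the HIP, it was nearer to the HIP for 500 and nearer to the STR for 420. The share nearer to the HIP, 54.35%, was thus no higher than among all transcripts tested. With all libraries, it was nearer to the HIP for 780 of 1121 transcripts higher in the STR, and for 383 of 697 higher in the HIP. The medians of the STR-high transcripts were 7.72 FPKM in the STR, 3.91 in the HIP, and 4.795 in the PFC. Those of the HIP-high transcripts were 5.36 FPKM in the STR, 11.7 in the HIP, and 8.75 in the PFC. In both sets this overall PFC median lay between those of the STR and the HIP, but many single transcripts did not. The PFC was below both regions for 29.9% of the STR-high transcripts and above both for 10.35%. Among the HIP-high transcripts these shares were 20.9% and 22.8%, and among all transcripts tested 40.95% and 25.25%. Over all transcripts tested, the medians were 4.08 FPKM in the STR, 3.86 in the HIP, and 3.55 in the PFC.

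The comparison was then examined in HIV_Sal rats, which share no library with F344_Sal rats. With all 24 HIV_Sal libraries, 1018 of 14549 transcripts were higher in the STR (7%) and 776 were higher in the HIP (5.33%). Without replicate 6, 1449 of 13967 were higher in the STR (10.4%) and 1036 in the HIP (7.42%). The relative depth of HIV_Sal rats differed between the regions, with means of 2.27 in the STR and 1.97 in the HIP. With depth as a covariate, 210 and 163 transcripts were called with all libraries, and 747 and 618 without replicate 6. Of the 13024 transcripts tested in both strains without the doubted libraries, 2438 were called in F344_Sal and 2422 in HIV_Sal rats, and 1543 were called in both. Of these, 1541 had the same direction, which is 63.2% of the F344_Sal calls and 63.6% of the HIV_Sal calls. With all libraries, 997 were called in both and 996 of them in the same direction (55.8% and 56.6%). The sign of the difference was the same in HIV_Sal rats for 96.6% of the transcripts called in F344_Sal rats, beside 70.2% of all transcripts tested.

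The 3 transcripts named for their large folds showed the same order in HIV_Sal rats. Without replicate 6, ENSRNOT00000036034 had a log2 difference of 6.07 (SE 0.43, adjusted p = 4.24e-10), ENSRNOT00000067924 one of 5.21 (SE 0.48, adjusted p = 2.91e-08), and ENSRNOT00000008126 one of -7.75 (SE 0.28, adjusted p = 3.19e-15). With all libraries these were 4.94, 4.33, and -6.60. With all libraries and depth as a covariate they were 3.35 (adjusted p = 0.113), 3.22 (adjusted p = 0.0807), and -5.34 (adjusted p = 0.0136), so that the calls of the first and second were lost. For each of them, the STR and HIP libraries of the other 11 rats did not overlap. ENSRNOT00000018145 differed by -0.70 (SE 0.12, adjusted p = 0.000193) without replicate 6 and -0.62 (adjusted p = 0.00194) with all libraries, with some overlap, and by -0.59 (adjusted p = 0.0762) with depth as a covariate.

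**Figure D5:**
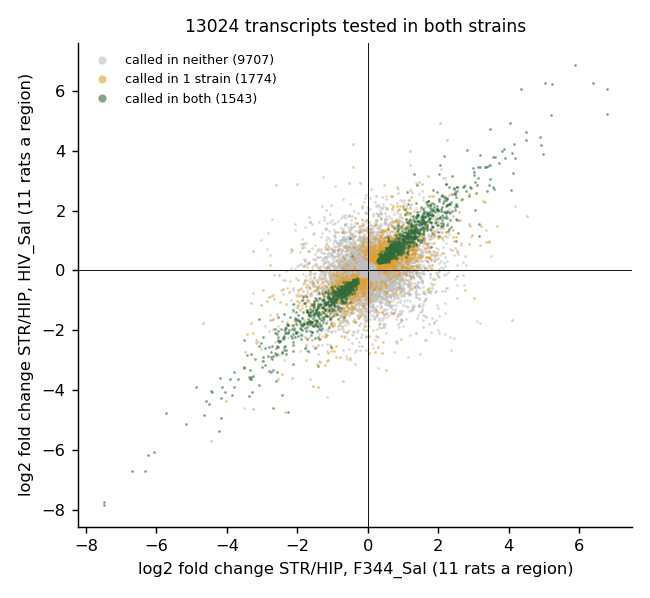
log2 fold change STR/HIP in HIV_Sal rats (y axis) against that in F344_Sal rats (x axis), both from 11 rats a region without the doubted libraries, for 13024 transcripts tested in both. Colours mark transcripts called in neither strain (9707), in 1 strain (1774), and in both (1543); the last lie where both folds have the same sign, with 2 exceptions.

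In F344_Nic rats, 1590 of 14497 transcripts were higher in the STR (11%) and 1034 in the HIP (7.13%). Of the 13299 transcripts tested in both F344 groups, 1641 were called in both F344_Nic rats and F344_Sal rats without replicate 10, and 1639 of them had the same direction, which is 66.8% of the F344_Sal calls and 64.40% of the F344_Nic calls. The counts of F344_Sal rats without replicate 10 were closer to those of F344_Nic rats than were the counts with all libraries. This is no independent check, since replicate 10 was doubted through lists picked in the F344_Nic rats.

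The region difference itself changed between the strains in 2 of 13672 transcripts (0.0146%) with all 48 saline libraries, and 673 had an unadjusted p under 0.05. Without both libraries of F344_Sal replicate 10 and HIV_Sal replicate 6, 2 of 13024 passed the threshold (0.0154%), the same ones, and 712 had an unadjusted p under 0.05. Both are transcripts of low expression whose gene names were not available here. The transcript of 1586 bases had medians of 0.213 FPKM in the STR and 0.297 FPKM in the HIP of F344_Sal rats, and of 0.477 and 0.152 FPKM in HIV_Sal rats, without the doubted libraries. The transcript of 1339 bases ranged from 0.714 to 1.37 FPKM in the STR and from 0.732 to 2.10 FPKM in the HIP of F344_Sal rats, and from 1.06 to 3.00 FPKM and from 0.616 to 1.02 FPKM in HIV_Sal rats. In both transcripts the STR was higher in HIV_Sal rats, where the relative depth was also higher in the STR. With depth as a covariate, 3 transcripts passed the threshold with all 48 libraries.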

How the data were processed

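Reads were mapped by the authors to the Rn4 assembly (Bowtie 1.04 and TopHat, per the submitters' processing notes), and transcript FPKM values from Cufflinks were deposited for each library. The version of Cufflinks is not given in the sources used here. A separate table holds each strain and region, and the number of unused sample columns was 0. Rows with class code = were joined between the STR and HIP by reference gene and transcript. The FPKM was read from each packed cell, and several estimates in a cell were summed (0.273% of F344_Sal values). Missing values (2.45%) were left out of the fits.

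Values were tested as log2(FPKM + 0.1) with limma (version 3.58.1, R version 4.3.3), using a separate fit of STR against HIP for each group of rats and with a strain by region term over the 48 saline libraries. Fold changes on this scale are too small for transcripts near 0. Transcripts were tested where 6 or more rats of each region exceeded 0.01 FPKM, and were called at an adjusted p under 0.05 and a fold over 1.2. Sums over the transcripts of a gene were tested in the same way, across all genes. The 12 libraries of a region and group are of separate rats, and the regions of a group share these rats. No pairing of the 2 regions by replicate number was detected: the highest correlation of same-numbered deviations was 0.04. Such a low correlation cannot show that same-numbered libraries came from different rats. No library was a duplicate, since the 2 most alike shared 0.0155% of values. In simulated F344_Sal data with all 24 libraries and 14682 transcripts, 58% of transcripts changed by 1 and 75% of those changed by 2 on the log2 scale were recovered, with 6 false calls. Without replicate 10, with 14042 transcripts, these were 55% and 75%, with 19 false calls. For the strain by region term with all 48 libraries and 13672 transcripts, they were 41% and 67%, with 7 false calls. The changed transcripts were drawn from those with a mean log2(FPKM + 0.1) over 2. The noise was normal, so that the 2 levels and the values at 0 seen in the data were not simulated.

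The rule for named genes was the 2 transcripts from each end of the fold ranking with a mean of at least 5 FPKM and no overlap, and the genes the study names. With all libraries it gave 1 transcript, and the ranking without replicate 10 was then used, from which 2 at the STR end and 1 of the 2 at the HIP end are named. Gene names were attached by matching 24 entries of group means and SEMs printed in the study, 8 numbers each (7 for Mapk8ip2), to the tables. Each entry matched exactly 1 row within 0.0051, after values beyond 5 median absolute deviations were removed, and 0 rows matched in the tables of other regions. Of the 24 matched rows, 20 were of class code =, and the other rows (Wnt7a, Calm3, Cabp1, and Letm1) gave only the name. This matching was set up after the data were examined. Lists of cell type marker genes could not be used without names. The region comparison, its members, and the lists were chosen with earlier results of these data known. The alternatives are listed with their effect in the closing section.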

Additional observations from a re-analysis of the deposited data

Results flagged for a closer look

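In 2 transcripts the STR minus HIP difference changed between the strains. For the transcript of 1586 bases, the difference was -0.19 on the log2 scale in F344_Sal rats (SE 0.15, adjusted p = 0.483) and 1.30 in HIV_Sal rats (SE 0.24, adjusted p = 0.000777), and the change was 1.49 (SE 0.28, adjusted p = 0.0176). Without the doubted libraries the change was 1.53 (adjusted p = 0.0232). For the transcript of 1339 bases, the difference was -0.48 in F344_Sal rats (SE 0.16, adjusted p = 0.0559) and 1.11 in HIV_Sal rats (SE 0.21, adjusted p = 0.000798), and the change was 1.59 (SE 0.25, adjusted p = 0.00081). Without the doubted libraries it was 1.60 (adjusted p = 0.00338), and the transcript was past the threshold in opposite directions, at -0.51 in F344_Sal rats (adjusted p = 0.0388) and 1.09 in HIV_Sal rats (adjusted p = 0.000814). In F344_Nic rats the region differences of these transcripts were 0.08 (adjusted p = 0.775) and -0.20 (adjusted p = 0.457).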

How the results depend on the processing

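In F344_Sal rats, the counts of transcripts higher in the STR and HIP (1124 and 698) stayed within 1.5 times under all but 2 of the alternatives tried. They were 2580 and 1578 with low values and outliers removed, and 566 and 404 with the replicate number as a block. No pairing by number was detected (2 of 12 libraries correlated best with their own number), but whether same-numbered libraries share a rat is unknown. Without replicate 10 the block gave 1366 and 804, and the removal of low values and outliers gave 3034 and 1774. In HIV_Sal rats, the counts were 2412 and 1728 with low values and outliers removed, 210 and 163 with depth as a covariate, and 523 and 471 with the block. Without replicate 6, they were 2779 and 1987 with low values and outliers removed and 747 and 618 with depth as a covariate. The cause was not tested. With depth as a covariate, 5 of the named transcripts were no longer past the threshold in HIV_Sal rats with all libraries (Gnal, Rap1b, ENSRNOT00000018145, ENSRNOT00000036034, and ENSRNOT00000067924).

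Leaving out 1 library at a time gave 972 to 1438 and 615 to 814 in F344_Sal rats, and 885 to 1272 and 704 to 920 in HIV_Sal rats. Median scaling gave 921 and 790 in F344_Sal rats, and 1329 and 1086 without replicate 10, so that the excess of the STR was smaller than without it. The 2 transcripts that differed by strain became 5 with a pseudocount of 1, 4 with median scaling, 33 with outliers removed, and 1 with a pseudocount of 0.01, without a filter, with a mean of at least 1 FPKM, with the filter in either region, or with the block. Leaving out 1 library gave 2 to 7. The count exceeded 3 without F344_Sal STR replicate 2 (4), F344_Sal HIP replicates 1 (7) or 11 (5), HIV_Sal STR replicates 1 (6) or 10 (6), or HIV_Sal HIP replicate 6 (6). The 1 gene with oppositely called transcripts became 13 without a filter, 14 with a mean of at least 1 FPKM, 15 with the filter in either region, and 9 with low values and outliers removed. It became 2 with a pseudocount of 1, median scaling, library weights, all 4 saline groups in 1 fit, or without replicate 10. Leaving out 1 library gave 1 to 2. Transcripts found in 1 region went from 1 and 0 to 9 and 7 without replicate 10, and leaving out 1 library gave 1 to 4 and 0 to 1 (4 and 1 without the library labelled HIP of replicate 10, and 2 in the STR without HIP replicates 2 or 5). Leaving out the doubted libraries, the first estimate of a cell, and missing values as 0 were alternatives added after the data were seen. No result reversed its direction while past the threshold.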
